A study of Homo sapiens with 2 samples.

Results

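Inhibitor of DNA binding (ID) proteins and the bone morphogenetic protein (BMP) pathway that switches their genes on were followed in sorted fractions of KYSE-140, an established human esophageal squamous carcinoma line. The members were 10 genes taken by name: ID1, ID2, ID3 and ID4, the ligands BMP2, BMP4 and BMP7, the receptors BMPR1A and BMPR2, and the inhibitory SMAD gene SMAD6. Every probe set that the platform annotation assigns to them was taken, which gave 27 of the 54675 probe sets on the array for 9 of the 10 genes. BMPR1A had no probe set listed under its name and was not analysed here. Of the 27 probe sets 26 belonged to 1 gene alone, and 1 is shared by ID2 and ID2B, a near-identical copy of ID2. Only 19 of the 27 reached the floor, a signal limit explained below, on at least 1 array. Against the whole series, 8 of the 10 genes stand among the 12466 genes counted as measured.

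The study sorted KYSE-140 cells by flow cytometry on CD90, a surface glycoprotein encoded by THY1, and hybridised total RNA of the CD90+ and of the CD90- fraction to 1 Affymetrix U133 Plus 2.0 array each. Both groups are the same line with no treatment or genetic change in the labels, and a single cell line was used. The labels part the groups by the sort alone. Any difference in RNA handling or hybridisation cannot be told apart from the sort, and a genomic difference between the fractions was not tested. With 1 array per population there is no replicate error, no test and no p-value, and each ratio below describes 2 RNA samples. In bulk RNA, fewer cells of a type and less RNA per cell cannot be told apart. THY1 read 293 in CD90+ and 78.9 in CD90- cells, higher in the fraction sorted for its protein. The 6 squamous epithelial markers with a named probe set were all measured and none differed by 2-fold, and their summed signal was 81596 in CD90+ and 84132 in CD90- cells. Of the markers of other cell types, 1 of 6 fibroblast genes (COL1A1), 1 of 5 endothelial genes (PECAM1) and 0 of 4 leukocyte genes were measured. Their summed signals were 2284, 205 and 43 in CD90+ cells, and 1364, 107 and 109 in CD90- cells. These sums mix different probe sets and signals under the floor, so they do not compare cell numbers. COL1A1 gave 2125 of the 2284 and 1240 of the 1364, and all leukocyte signals were under the floor. Within the fibroblast list COL1A2, COL3A1, DCN, LUM and PDGFRB were under the floor on both arrays, as were PTPRC, CD3E, CD14 and LYZ in the leukocyte list and VWF, CDH5, KDR and TEK in the endothelial list. The part of COL1A1, whose ratio was 0.78, in the results below was not tested.

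BMPs are secreted dimers that bring type I and type II receptor kinases together on the cell surface. The activated receptors phosphorylate SMAD1, SMAD5 and SMAD9, which join SMAD4, enter the nucleus and switch on target genes, among which the ID genes and the feedback inhibitor SMAD6 are classical. ID proteins carry a helix-loop-helix domain but no DNA-binding region: they pair with E proteins and keep them off the E-box sequences at which basic helix-loop-helix factors drive differentiation. In stratified epithelia BMP signalling is known for its role in squamous differentiation, and ID proteins for holding progenitor cells in cycle.

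The ID promoters are shown because ID2, ID3 and ID4 read lower in CD90+ cells while ID1 hardly differed. Each sequence is the RefSeq window in build GRCh38.p14, written 5′ to 3′ on the strand of the gene, from 250 bases before to 50 bases after the gene's start. Capitals mark CCAAT boxes (CCAAT or its reverse complement ATTGG), TATA-type letters (TATAA or TTATA) and the letters of SMAD-binding elements (CAGAC or its reverse complement GTCTG, besides the palindrome GGCGCC).
ID1, chr20:31605039-31605338, plus strand: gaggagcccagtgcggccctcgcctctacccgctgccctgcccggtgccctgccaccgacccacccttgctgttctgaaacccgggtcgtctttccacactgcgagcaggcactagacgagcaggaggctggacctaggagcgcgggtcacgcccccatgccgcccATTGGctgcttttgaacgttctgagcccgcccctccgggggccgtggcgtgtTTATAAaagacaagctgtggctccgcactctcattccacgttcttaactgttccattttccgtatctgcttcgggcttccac
ID2, chr2:8681806-8682105, plus strand: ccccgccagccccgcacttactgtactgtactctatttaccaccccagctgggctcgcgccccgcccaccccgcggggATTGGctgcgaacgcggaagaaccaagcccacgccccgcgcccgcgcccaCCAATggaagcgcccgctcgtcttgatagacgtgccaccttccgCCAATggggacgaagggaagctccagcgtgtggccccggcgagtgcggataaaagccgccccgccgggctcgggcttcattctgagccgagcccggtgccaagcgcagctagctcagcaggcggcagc
ID3, chr1:23559452-23559751, minus strand: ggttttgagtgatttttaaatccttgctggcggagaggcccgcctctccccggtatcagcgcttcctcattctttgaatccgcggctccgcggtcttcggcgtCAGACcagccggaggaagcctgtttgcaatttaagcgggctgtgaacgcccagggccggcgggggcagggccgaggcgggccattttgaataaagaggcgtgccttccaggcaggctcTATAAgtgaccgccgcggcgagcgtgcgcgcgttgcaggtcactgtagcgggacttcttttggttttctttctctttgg
ID4, chr6:19837120-19837419, plus strand: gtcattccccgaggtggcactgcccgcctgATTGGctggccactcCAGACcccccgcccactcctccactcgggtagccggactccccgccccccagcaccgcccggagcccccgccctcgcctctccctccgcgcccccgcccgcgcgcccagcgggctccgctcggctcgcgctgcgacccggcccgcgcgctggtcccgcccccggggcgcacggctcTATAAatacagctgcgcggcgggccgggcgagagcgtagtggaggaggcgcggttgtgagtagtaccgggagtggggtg

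TATAA letters stood at nearly the same place in 3 of the 4 ID promoters, beginning 31 bases before the start in ID1 and 29 bases before it in ID3 and in ID4 (positions -31, -29 and -29). In ID1 TTATA and TATAA overlap. ID2 had no TATAA in its window but 3 CCAAT boxes, at -172, -122 and -78, against 1 in ID1 (-84), 1 in ID4 (-220) and 0 in ID3. Only exact letters were searched, so a looser TATA-type match in ID2, such as its letters GATAAAAG, was not counted. The element CAGAC occurred once in ID3 (-147) and once in ID4 (-205) and not in ID1 or ID2. GGCGCC occurred in none of the 4. Among 35116 promoter windows of the same length, TATAA or TTATA was held by 20.4%, CCAAT on either strand by 34.6%, CAGAC by 45.3% and GGCGCC by 19.2%. The E-box CACCTG, searched on both strands, held by 20.6% of windows, was in 0 of the 4. These are matches of letters in short windows. Within these windows neither SMAD-type motif parted ID1 from the other ID genes: CAGAC was in ID3 and ID4 but not in ID2. Sites farther from the start were not searched, and the part of such motifs in the ratios was not tested. Of the other members, windows were found for BMP4, BMPR1A, BMPR2 and SMAD6, and GGCGCC was in BMP4 and BMPR2.

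Signals are MAS5 intensities in arbitrary units. A floor of 71.6, the middle of all probe set signals, was applied before a ratio was taken, so that a fold with 1 side under the floor is a lower bound. The log2 ratio is CD90+ over CD90-, and a gene is represented by its brightest probe set. Signals of different probe sets are not comparable as levels, so the members are ordered here by their ratios and not by abundance. At 2-fold, 3 of the 8 measured members were lower in CD90+ cells and 0 were higher. Over all 12466 measured genes 1.75% were at least 2-fold lower and 2.47% at least 2-fold higher. The median log2 ratio of the 8 members was -0.29, beside 0.01 over all measured genes. Ratios below 0 were held by 6 of the 8 members, beside 6082 of all 12466 measured genes. All of the members past 2-fold were ID genes: the 4 ID genes had a median of -1.07, and the 4 other measured members one of 0.06.

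**Figure D1:**
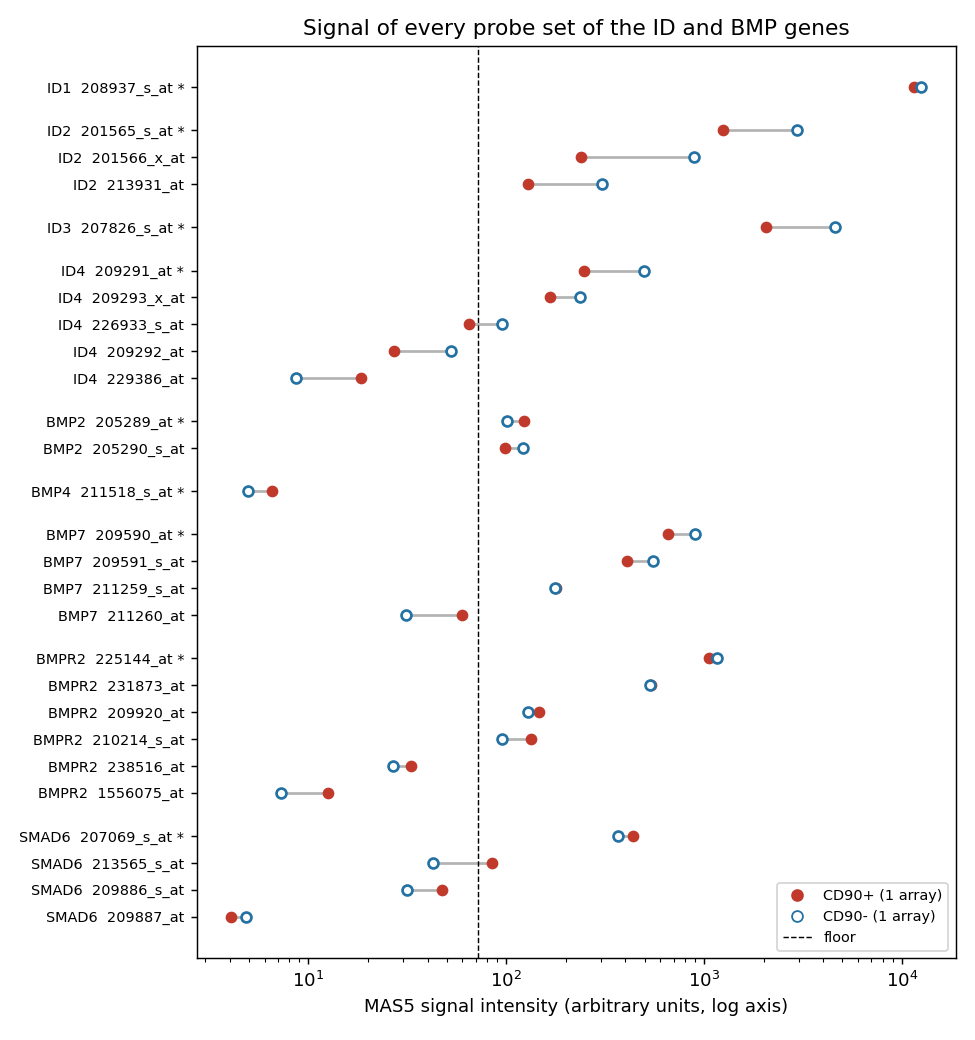
MAS5 signal (log axis, arbitrary units) of each of the 27 probe sets of the ID and BMP genes in CD90+ (filled) and CD90- cells (open), 1 array each; the dashed line is the floor of 71.6 and an asterisk marks the probe set that stands for the gene. The open point lies to the right for every ID probe set above the floor, while the pairs of BMPR2 and BMP2 lie close together and go both ways.

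ID2, an ID protein that also binds the retinoblastoma protein, had a signal of 1244 in CD90+ cells against 2945 in CD90- cells. That is a 2.37-fold lower signal in CD90+ cells, with a log2 ratio of -1.24, which was the 116th lowest of the 12466 measured genes. Its second probe set, of the _x_at class prone to cross-hybridisation, read 238 against 893, 3.75-fold lower. The probe set shared with ID2B read 129 against 306, also 2.37-fold lower, and cannot be given to ID2 alone. All 3 probe sets thus stood above the floor in both fractions and had the same direction.

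ID3, which shares the helix-loop-helix fold and most of its known partners with ID1 and ID2, read 2064 in CD90+ and 4562 in CD90- cells on its only probe set. It was 2.21-fold lower, with a log2 ratio of -1.14, the 146th lowest of all measured genes. No other probe set repeats this measurement. Both signals were far above the floor, the brighter by 63.7 times.

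ID4, the most divergent ID protein and one that can oppose the others, read 247 in CD90+ and 497 in CD90- cells on its brightest probe set. The difference was 2.01-fold, a log2 ratio of -1.01, so it lay at the edge of the 2-fold criterion. Its other measured probe sets were lower by less, at 166 against 237 (1.43-fold) and at 64.6 against 95.3 (at least 1.33-fold). The last 2 probe sets of ID4 were under the floor on both arrays. The direction was therefore shared by all 3 measured probe sets of ID4, but the size of 2-fold was seen on 1 of them. Under 6 of the 9 other processing settings its ratio was smaller than 2-fold.

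ID1, the ID gene most used as a readout of BMP signalling, read 11481 in CD90+ cells against 12476 in CD90- cells on its only probe set, a log2 ratio of -0.12. It was 1.09-fold lower, and 34.6% of measured genes had a ratio as low or lower. ID1 thus stayed close to the middle of all genes where the ratios of ID2 and ID3 lay among the lowest 0.931% and 1.17%, and that of ID4 among the lowest 1.72%. The pooled SD of log2 ratios between probe sets of a gene was 0.28 for genes whose brightest probe set read at least 16 times the floor, as ID1, ID2 and ID3 did, and 0.34 for genes at 4 to 16 times, as ID4 did. This spread covers probe sets on 1 pair of arrays and not repeated sorts. The log2 ratios of ID2 and ID3 lay 1.12 and 1.02 below that of ID1, and that of ID4 lay 0.89 below it.

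**Figure D2:**
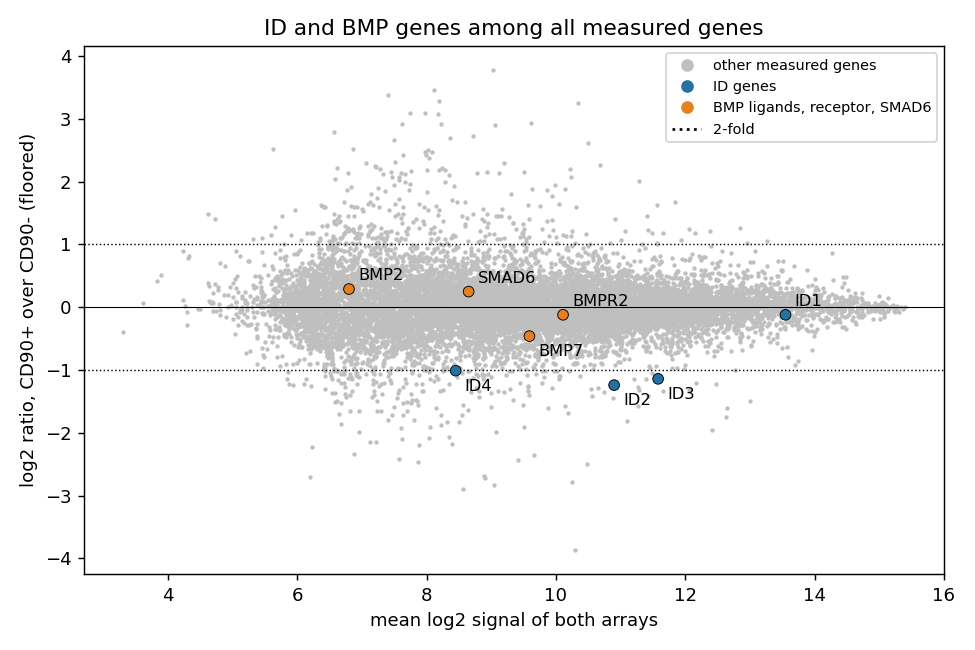
Log2 ratio of CD90+ over CD90- (floored) against the mean log2 signal of both arrays for the 12466 measured genes, with ID genes in blue and the other members in orange; dotted lines mark 2-fold. ID2 and ID3 lie below the 2-fold line and ID4 on it, while ID1, BMPR2, BMP7, BMP2 and SMAD6 lie between the lines.

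The ligands gave no difference of 2-fold. BMP7, a ligand expressed by many epithelia, was the best measured and read 656 in CD90+ and 900 in CD90- cells, 1.37-fold lower with a log2 ratio of -0.46. Its second probe set read 407 against 553 (1.36-fold lower), another 179 against 177 (a log2 ratio of 0.02), and the dimmest was under the floor. The brighter pair of BMP7 probe sets thus agreed in a small negative ratio that the 179 against 177 pair did not show. BMP2, which acts mainly through type I receptors of the BMPR1 class, read 123 against 101 on 1 probe set and 98.1 against 122 on the other. Those log2 ratios, 0.29 and -0.31, have opposite signs at signals close to the floor, so no direction can be given for BMP2. BMP4, the closest relative of BMP2, read 6.57 against 4.93 on its only probe set, under the floor in both fractions. At such signals a fold has no meaning, and BMP4 was not detectable above the floor in either fraction.

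The receptor and the inhibitor differed little. BMPR2, the type II receptor specific to BMP ligands, had 6 probe sets. The brightest gave 1059 in CD90+ against 1155 in CD90- cells and a log2 ratio of -0.12. The next 3 read 536 against 531, 147 against 129 and 134 against 95.5, with log2 ratios of 0.01, 0.19 and 0.49, and the last 2 were under the floor. Over these 4 probe sets of BMPR2 the ratio was higher the dimmer the signal, and none reached 2-fold. SMAD6, which blocks type I receptors and is itself switched on by BMP signals, read 439 against 368 on its brightest probe set, a log2 ratio of 0.25. A second probe set read 84.7 against 42.8, at least 1.18-fold higher in CD90+ cells, and the other 2 were under the floor. SMAD6, a classical BMP target like the ID genes, was thus not lower in CD90+ cells on either measured probe set.

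The wider pathway was described with lists of named genes grouped by role. The lists were chosen with earlier results of these data known, so their shares are descriptions and not independent counts. Beyond the 10 members they held 63 genes, of which 43 were measured. Of these 2 were at least 2-fold lower in CD90+ cells and 3 at least 2-fold higher, with a median of -0.15. As shares, 4.65% were at least 2-fold lower and 6.98% at least 2-fold higher, beside the 1.75% and 2.47% of all genes given above.

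Most BMP ligands were under the floor: of 14 listed, 13 had a probe set and 4 were measured, none of them beyond 2-fold. Besides BMP7, the brightest was BMP8B at 296 against 349. Of 12 receptors and co-receptors 8 were measured. At 2-fold 1 was higher (12.5%, beside 2.47% of all measured genes) and 0 were lower. The median was -0.28, and 7 of the 8 ratios were below 0, beside 6082 of all 12466 measured genes. The exception was BMPR1B, a type I receptor, which read 191 in CD90+ and 80.0 in CD90- cells, 2.39-fold higher. Its second measured probe set read 90.9 against 46.2, at least 1.27-fold higher, and both lay near the floor in CD90- cells. The type II receptor ACVR2A, which was picked out afterwards, read 355 against 625 and, on its second probe set, 341 against 566, which is 1.76-fold and 1.66-fold lower. ACVR2A, ACVR1 and BMPR2 lie on chromosome 2, and with their neighbours' medians subtracted their log2 ratios were -0.40, 0.23 and 0.12. In that form 5 of the 8 receptor ratios were below 0. Measured probe sets of BMPR2, NEO1 and RGMB went both ways, with 1 of RGMB at 205 against 133. By the mean of probe sets the receptor median was -0.16. By that mean or the least changed probe set, BMPR1B was under 2-fold and 0 receptors passed it. With a floor at the 75th percentile 0 receptors were at least 2-fold higher.

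Secreted antagonists bind BMP ligands and keep them from their receptors. Of 16 listed, 9 were measured, with 1 (11.1%) at least 2-fold higher, 0 at least 2-fold lower and a median of 0.32. Over all measured genes 2.47% were higher and 1.75% lower by that criterion, with a median of 0.01. The 1 higher antagonist was SOST, or sclerostin, better known as an inhibitor of Wnt signalling. It read 216 in CD90+ and 33.6 in CD90- cells, at least 3.02-fold higher on its only probe set. Noggin (NOG) and gremlin (GREM1), antagonists with high affinity for BMPs, were under the floor on both arrays. FST, or follistatin, which binds activins and some BMPs and was picked out afterwards, read 6847 against 5502, 1.24-fold higher. The antagonists' median became -0.03, with 1 gene at least 2-fold lower, under a floor at the 25th percentile. Once the neighbours' median was subtracted, 3 genes were at least 2-fold higher. With a floor at the 75th percentile 0 antagonists were at least 2-fold higher.

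The SMAD proteins and their regulators were all measured, and none of the 13 was beyond 2-fold. The brightest were SKIL, a SMAD co-repressor, at 4366 against 3823, and the ubiquitin ligase SMURF2, at 3328 against 2908. Of the BMP-activated SMADs, named because they carry the signal, SMAD1 read 2376 against 2784 and SMAD5 2187 against 2387, log2 ratios of -0.23 and -0.13. SMAD9 read 653 against 1119, a log2 ratio of -0.78, on its only measured probe set. The shared partner SMAD4 read 433 against 688, a log2 ratio of -0.67, and was lower on all 4 measured probe sets. SMAD4 lies on chromosome 18 among genes whose median log2 ratio was -0.54, which leaves -0.12 when that median is subtracted.

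BMP target genes had ratios below 0 in 13 of 21 measured genes, all 4 ID genes among them, beside 6082 of all 12466 measured genes. Of the 21 targets 5 (23.8%) were at least 2-fold lower and 1 (4.76%) at least 2-fold higher. Over all measured genes the shares were 1.75% and 2.47%. The other 15 targets lay between, and the median of the 21 was -0.24. The list repeats the members ID1, ID2, ID3, ID4 and SMAD6. Of the 5 lower targets ID2, ID3 and ID4 were already counted as members, so the 23.8% is not separate from that count. The lower targets beyond the members were HEY1 and DLX5. HEY1, a transcriptional repressor that both BMP and Notch signals switch on, read 2701 against 6748 (2.50-fold lower) and on its second probe set 1501 against 4864 (3.24-fold lower). The homeobox gene DLX5 read 348 against 750, 2.16-fold lower on its only probe set. GATA3, a transcription factor of epithelial differentiation, was the 1 higher target, at 197 against 80.3 (2.45-fold), with its other probe sets under the floor. With a floor at the 75th percentile, or without shared probe set classes, 0 targets were at least 2-fold higher. BAMBI, a decoy receptor, and SMAD7, an inhibitory SMAD, both feedback targets like SMAD6 and both singled out afterwards, read 655 against 639 and 286 against 337. SMAD7 lies among chromosome 18 genes with a median of -0.55, and its log2 ratio of -0.24 becomes 0.32 when that is subtracted. Of the targets short of 2-fold, RUNX3, SMAD9 and ATOH8, also picked out afterwards, had the lowest log2 ratios, at -0.88, -0.78 and -0.69. The 5 lower targets became 3 with a floor at the 75th percentile, where the median was -0.55, and 2 without probe sets shared between transcripts or with the neighbours' median subtracted, where DLX5 stood at -0.96.

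**Figure D3:**
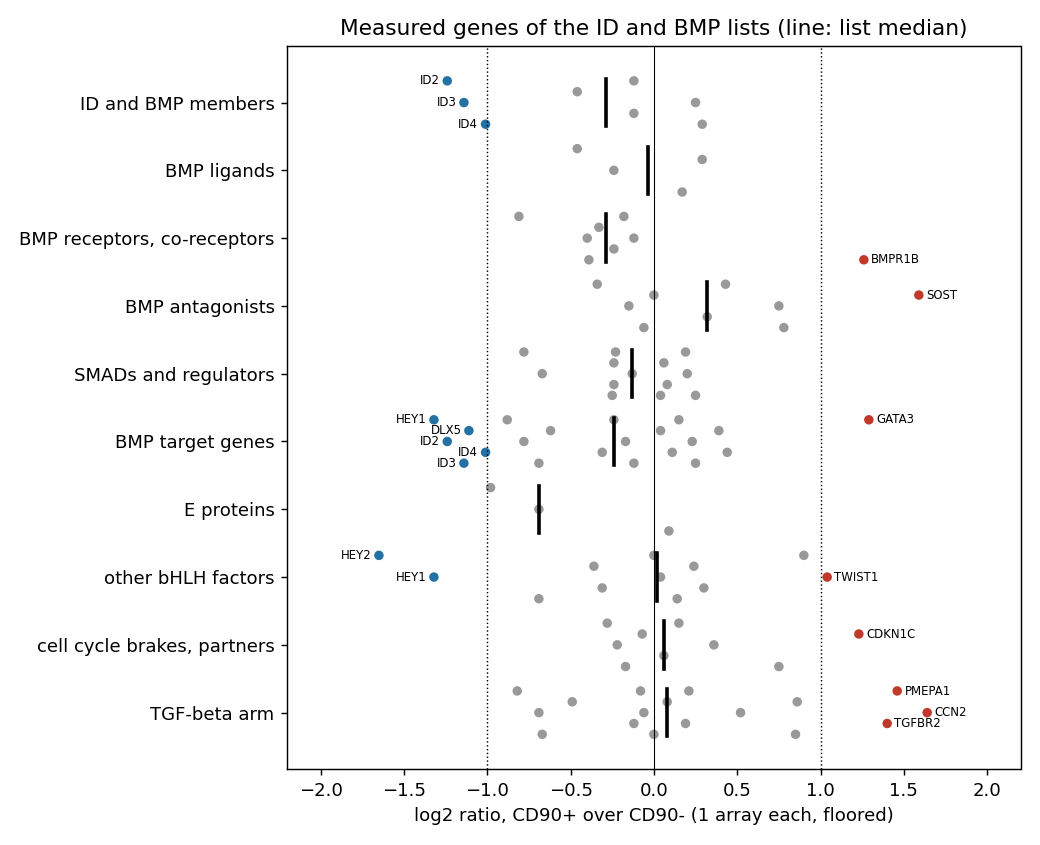
Log2 ratio of CD90+ over CD90- for each measured gene (points) of the ID and BMP lists and of the TGF-beta arm, 1 array per fraction, with list medians as bars and 2-fold as dotted lines; genes beyond 2-fold are named. Lower genes beyond 2-fold occur in the member, target and basic helix-loop-helix lists, and the target list shares genes with each of the others. Higher ones occur in the receptor, antagonist and target lists among others, and the TGF-beta arm has 3 higher and 0 lower.

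The proteins that ID factors bind were described next. E proteins are the broadly expressed partners that ID proteins sequester. TCF4, an E protein, read 2612 in CD90+ and 4206 in CD90- cells, 1.61-fold lower, and was lower on 7 of its 8 measured probe sets. TCF12 read 1923 against 1807. TCF3, named here because the list has only 3 genes, read 1093 against 2155, 1.97-fold lower, and was lower on 8 of 10 measured probe sets. A TCF3 probe set of 661 against 607 went the other way. TCF4 lies among chromosome 18 genes with a median of -0.54, which leaves a log2 ratio of -0.14. TCF3 has neighbours with a median of -0.19, which leaves -0.79.

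Tissue-restricted basic helix-loop-helix factors pair with E proteins, while the HES and HEY proteins of the same class act as repressors. Of 12 measured, 2 (16.7%) were at least 2-fold lower: HEY1, already counted among the targets, and HEY2 (57.1 against 225, at least 3.14-fold). In the other direction 1 (8.33%) was at least 2-fold higher. Over all measured genes the shares were 1.75% lower and 2.47% higher. The second probe set of HEY2 read 58.8 against 98, at least 1.37-fold lower, and by the least changed probe set only HEY1 was counted as lower. The higher one was TWIST1, an E-protein partner active in mesenchymal cells, at 634 against 307 (2.06-fold) on its only probe set. With a floor at the 75th percentile 1 of these factors was at least 2-fold lower and 0 were higher. With the neighbours' median subtracted 2 were at least 2-fold higher. Among cell cycle genes tied to ID function, 1 of 9 measured (11.1%, beside 2.47% of all measured genes) was at least 2-fold higher and 0 were lower. It was CDKN1C, an inhibitor of cyclin-dependent kinases, at 1518 against 648 (2.34-fold higher). Its other 3 measured probe sets were higher by 1.51-fold to 1.74-fold, so that by the mean of probe sets or the least changed one 0 genes of the list were counted. CDKN2A, a kinase inhibitor locus, was under the floor on the probe set that stood for it, but its _x_at probe set read 143 against 14.9, a bound just under 2-fold. With a floor at the 25th percentile 2 genes of this list were at least 2-fold higher, CDKN1C and CDKN2B. CDKN2B, at 36.8 against 8.72, was under the floor as reported. RB1, the retinoblastoma gene, was picked out afterwards and read 4891 against 5687.

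The TGF-beta arm uses other receptors and SMADs of the same superfamily and is given for contrast. Of its 17 measured genes 3 were at least 2-fold higher in CD90+ cells (CCN2, PMEPA1 and TGFBR2, with log2 ratios of 1.64, 1.46 and 1.40) and 0 at least 2-fold lower, with a median of 0.08. CCN2 has 1 probe set, and the 3 of PMEPA1 were higher by 2.75-fold to 2.8-fold. The second probe set of TGFBR2 read 91.1 against 5.8, at least 1.27-fold higher. This list was not recomputed under the other processing settings. The higher share was 17.6%, where 2.47% of all measured genes were higher by that criterion and 1.75% lower. The BMP pathway genes beyond the members, the list nearer in make-up, gave 3 higher and 2 lower of 43. The ID family gave 0 higher and 3 lower of 4. The ID genes are a chosen part of the BMP targets, so their counts do not set the BMP pathway against the TGF-beta arm. With 1 array per fraction no difference between these lists carries a test.

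Neighbouring genes were set beside each ID gene because ratios on some chromosome segments shifted together. For each, the 50 nearest genes by start position that reached the floor on both arrays were taken. Their median log2 ratio was 0.08 for ID1, -0.07 for ID3 and -0.05 for ID4, and -0.49 for ID2. After subtraction ID3 stood at -1.08, ID4 at -0.96, ID2 at -0.76 and ID1 at -0.20. Around ID2, 42 of 50 neighbours had ratios below 0 and 7 were at least 2-fold lower, against 1 of 50 around ID3 and 0 of 50 around ID4. The neighbours of ID2 were not alike on both sides. The 12 at lower start positions had a median of 0.02 and 5 were below 0, while the 38 at higher positions had a median of -0.59 and 37 were below 0. The nearest gene before ID2 is ID2-AS1, its antisense neighbour, whose ratio was -1.14. Its probe sets read 136 in CD90+ against 300 in CD90- cells (2.21-fold lower) and 49.9 against 114 (at least 1.59-fold lower). The part of this chromosome 2 segment in the lower signal of ID2 was not tested. ID3 and ID4 were each lower by nearly as much with the neighbours' median subtracted as without.

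**Figure D4:**
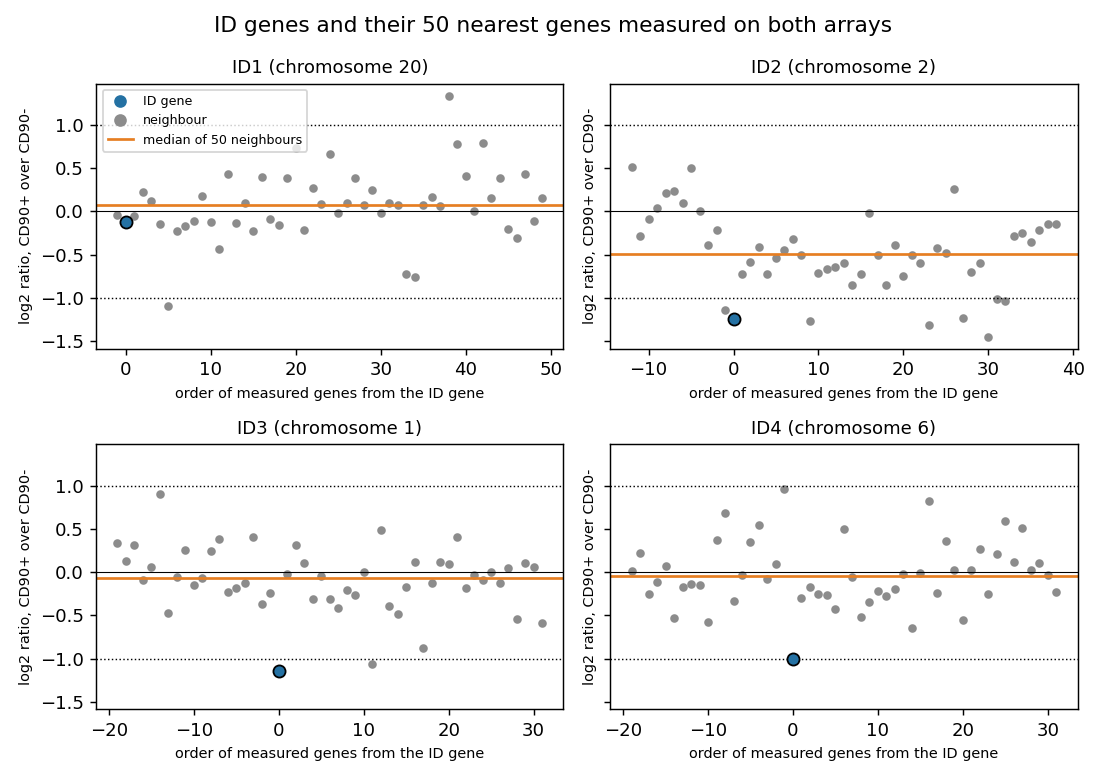
Log2 ratio of CD90+ over CD90- for ID1, ID2, ID3 and ID4 (blue, at 0 on the x axis) and their 50 nearest genes with both signals not under the floor (grey), in order of start position; the orange line is the median of the 50 and dotted lines mark 2-fold. ID2 sits at the edge of a run of genes below 0, whereas ID3 and ID4 lie below neighbours centred near 0.

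The remaining members were also set against their neighbours. BMPR2, which lies on chromosome 2 far from ID2 among genes with a median of -0.24, moved from -0.12 to 0.12. BMP7, among neighbours with a median of 0.13, moved from -0.46 to -0.59. SMAD6 and BMP2 stood at 0.28 and 0.26. None of the 4 passed 2-fold in either form.

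The ratios were recomputed under 9 other settings. ID3 was at least 2-fold lower under all 8 settings that gave it a value, and ID2 under 7 of 8, the exception being the subtraction of its neighbours' median. Several of these settings could not move the ratios. ID1 and ID3 have 1 probe set each, so the mean and the least changed probe set repeat the reported value. The signals of ID1, ID2 and ID3 lay above all floors used, so no floor setting could change their ratios. ID4 was below 0 under all 9 and at least 2-fold lower under 3. ID1, BMP2, BMP7, BMPR2 and SMAD6 did not reach 2-fold under any setting that gave them a value, and of these only ID1 (below 0) and SMAD6 (above 0) had 1 sign throughout.

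**Figure D5:**
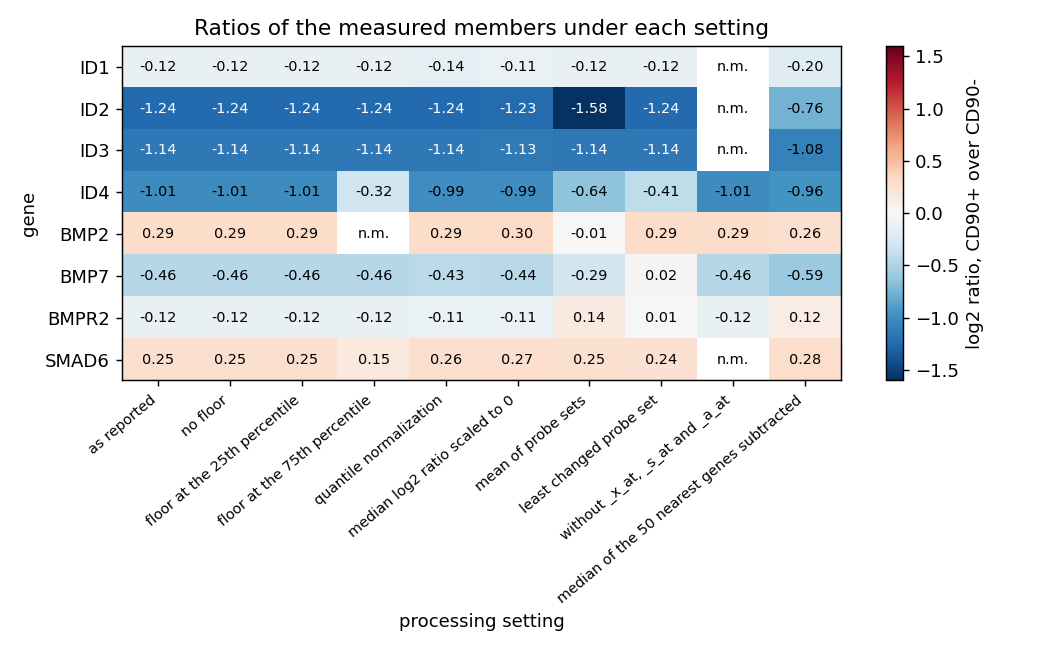
Log2 ratio of CD90+ over CD90- of the 8 measured members as reported and under 9 other processing settings (color scale, value in each cell; n.m. means not measured under that setting). ID3 stays between -1.14 and -1.08, ID2 between -1.58 and -0.76, and ID4 between -1.01 and -0.32. ID1 and ID3 have 1 probe set each, so the mean and the least changed probe set cannot move them.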

How the data were processed

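Total RNA of 2 sorted fractions was measured on 1 array each. MAS5 is named in the submitters' processing notes; it combines perfect-match and mismatch probes into 1 signal per probe set. Its version was not given in the sources used here. Values as deposited are linear signal intensities, and both arrays had a trimmed mean (2 to 98%) of 500.0, so they had been scaled to a common mean. Mismatch subtraction makes ratios of dim probe sets noisy. Detection calls were not used here, and the number of arrays limits the precision.

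Names came from the platform annotation of the array, with symbols updated by gene identifier to RefSeq GRCh38.p14. Probe sets with 1 symbol numbered 41097, those with several 1801, and 11777 were unnamed here. Signals under the floor of 71.6 (50th percentile) were set to it and log2 ratios taken. The brightest probe set stood for a gene, with the _x_at class used only where no other existed. A gene counted as measured where this probe set was not under the floor on both arrays, and 2-fold was the criterion. All 10 members were named. Each wider list named up to 4 genes each way beyond 2-fold, or its 2 brightest. The members and lists were chosen with earlier results of these data known. The procedure was tested on simulated data with differences well beyond 2-fold planted in bright genes only. That test does not cover dim genes or ratios near 2-fold. Python 3.11.15, numpy 2.4.6 and pandas 2.3.3 were used. The 9 alternatives are in the closing section.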

Additional observations from a re-analysis of the deposited data

How the results depend on the processing

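With 1 array per fraction no replicate could be left out, and no paired analysis was possible because each fraction has 1 sample. The count of members at least 2-fold lower was 3 as reported and with no floor or a floor at the 25th percentile. It was 2 with a floor at the 75th percentile, with quantile normalization, with the median ratio scaled to 0, with the mean of probe sets and with the least changed probe set. It was 1 without the _x_at, _s_at and _a_at classes, where 4 members have a value and ID1, ID2 and ID3 have none, and 1 (ID3) with the neighbours' median subtracted. The count of higher members was 0 in all 9 alternatives.

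ID4 stood at -0.32 under the 75th percentile floor, at -0.99 with quantile normalization and with the median scaled to 0, at -0.64 with the mean of probe sets, at -0.41 with the least changed probe set and at -0.96 with the neighbours' median subtracted. ID2 stood at -1.58 with the mean of probe sets and at -0.76 with the neighbours' median subtracted. BMP7 stood at 0.02 by its least changed probe set. BMPR2 turned to 0.14 by the mean of probe sets. Among pathway genes beyond the members (43 measured as reported, 55 and 25 under the 25th and 75th percentile floors, 33 without shared probe set classes), 2 lower became 4 under the 25th percentile floor, but 1 under the 75th percentile floor, without shared probe set classes, or with the neighbours' median subtracted. In this list 3 higher became 0 under the 75th percentile floor, or 5 with the neighbours' median subtracted. The E protein median of -0.69 became 0.02 by the least changed probe set, 0.09 without shared probe set classes and -0.14 with the neighbours' median subtracted. Apart from what the alternatives themselves remove (dim genes, probe sets, local medians), the cause was not tested.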
